A study of Mus musculus with 14 samples.

Results

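Spi1, Gfi1, Bcl6, Irf8, Irf4, Runx1, Id1, Id2 and Klf4 are 9 genes for transcriptional regulators that act in myeloid cells. They were followed here through the sorted fractions of FDCPmix, a mouse bone marrow progenitor line that depends on interleukin-3. A gene entered by name: its probes were those whose transcript accession belongs to 1 of the 9 genes. This gave 12 probes of the 41174 on the array, and 9 of its 16535 named genes. Spi1, Gfi1, Irf4, Bcl6, Runx1 and Klf4 had 1 probe each, and Irf8, Id1 and Id2 had 2.

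RNA from 14 samples was measured on single-colour Agilent arrays. All cells were FDCPmix kept in maintenance medium with interleukin-3 conditioned medium and horse serum, and no sample had another treatment or genotype. By surface antigens they had been sorted as Gr1+ (3 samples), Kit-Gr1- (3), Kit+Gr1-Sca1hi (3) and Kit+Gr1-Sca1lo (3), and 2 samples were unfractionated. The samples come from 1 cell line in culture, and the series' text calls them biological replicates without saying whether separate cultures were used. The p-values therefore measure the spread between these samples. That spread was estimated in 1 fit over all 5 groups, so it also carries the difference between the 2 unfractionated samples. Below, Kit+Gr1- means both Sca1 fractions, each weighted equally.

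PU.1, the product of Spi1, is an ETS-family factor needed for granulocytes and macrophages to form. Gfi1 is a zinc-finger repressor needed for neutrophils, and Irf8 favours monocytes and dendritic cells over granulocytes. Bcl6 is a zinc-finger repressor best known in B cells, Irf4 works with PU.1 in lymphoid and dendritic cells, Runx1 is a core-binding factor subunit at the base of adult blood formation, Id1 and Id2 are inhibitors that bind E proteins and lack a DNA-binding region, and Klf4 is a zinc-finger factor of monocytes.

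RefSeq windows of 250 bases before annotated start sites (mouse build GRCm38.p6) were held for 7 of the 9 genes, 11 windows in all. Spi1 and Id1 had none. Shown are 1 of the 2 windows of Gfi1 and both of Bcl6, the called genes with a window, and 1 of the 2 of Irf8, whose level was low in Kit-Gr1- cells. Capitals mark every match on either strand to GAGGAA, the core that PU.1 binds, AAATCA, the core that Gfi1 binds, TGTGGT, the core that Runx1 binds, or TTCNNNGAA, a motif that Bcl6 binds and that reads the same on both strands. Overlapping matches were allowed.

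Gfi1 (chr5:107725806-107726055, minus strand): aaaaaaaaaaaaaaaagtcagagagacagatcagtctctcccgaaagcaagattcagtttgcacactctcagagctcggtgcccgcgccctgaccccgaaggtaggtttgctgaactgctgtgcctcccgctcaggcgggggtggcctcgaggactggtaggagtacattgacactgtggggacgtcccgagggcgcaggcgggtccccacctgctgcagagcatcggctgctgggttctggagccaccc
Bcl6, upstream start (chr16:23988853-23989102, minus strand): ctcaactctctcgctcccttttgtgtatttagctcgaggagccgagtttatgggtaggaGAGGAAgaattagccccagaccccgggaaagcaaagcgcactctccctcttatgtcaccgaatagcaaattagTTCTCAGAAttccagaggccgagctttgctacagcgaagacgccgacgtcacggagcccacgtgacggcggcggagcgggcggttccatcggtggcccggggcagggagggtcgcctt
Bcl6, downstream start (chr16:23981284-23981533, minus strand): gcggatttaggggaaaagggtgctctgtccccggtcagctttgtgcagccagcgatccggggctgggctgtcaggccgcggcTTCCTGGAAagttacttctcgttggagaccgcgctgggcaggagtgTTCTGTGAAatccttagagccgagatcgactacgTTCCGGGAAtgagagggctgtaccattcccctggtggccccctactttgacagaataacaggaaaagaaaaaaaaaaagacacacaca
Irf8 (chr8:120736108-120736357, plus strand): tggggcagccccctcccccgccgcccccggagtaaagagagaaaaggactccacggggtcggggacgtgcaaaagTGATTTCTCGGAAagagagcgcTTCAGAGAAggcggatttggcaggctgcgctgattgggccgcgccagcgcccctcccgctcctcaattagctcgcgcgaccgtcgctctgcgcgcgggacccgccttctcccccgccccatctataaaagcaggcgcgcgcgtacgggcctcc

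The downstream Bcl6 window held 3 TTCNNNGAA matches, the upstream one 1, with 1 GAGGAA. The Irf8 window held 2 TTCNNNGAA matches, 1 of them overlapping 1 AAATCA match on the minus strand. The Gfi1 window held none of the 4 motifs. Over 32851 RefSeq windows of this length, 23.3% held GAGGAA, 12.4% AAATCA, 14% TGTGGT and 7.02% TTCNNNGAA. A match is only these letters in the window.

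The fractions were checked against their gate antigens. Ly6c1, one of the genes behind the Gr1 epitope, had log2 signals of 5.73 to 6.72 in Gr1+ samples, -3.06 to 0.07 in Kit-Gr1- samples and -2.25 to 0.92 in Kit+Gr1- samples. Throughout, a log2 signal is set against its array's 75th percentile, which is 0. Kit, the receptor used for sorting, was at 0.43 to 0.97 in Gr1+ samples, -2.04 to -1.61 in Kit-Gr1- samples and -0.18 to 0.77 in Kit+Gr1- samples. Ly6a, which encodes Sca1, was -0.52 to 0.16 in Sca1hi samples and -2.96 to -2.38 in Sca1lo samples. Its signal was highest in Gr1+ samples, at 2.57 to 3.05, and it was -3.21 to -2.12 in Kit-Gr1- samples. The summed signal of 12 neutrophil markers was 149340% to 210249% of the 75th percentile in Gr1+ samples, and 6670% to 36430% in the other sorted samples. The summed signals of other myeloid markers also reached their highest values among sorted samples in Gr1+ samples, but not every marker did. The sum of 6 eosinophil markers was 10881% to 28361% in Gr1+ samples, against 99.0% to 373% in the other sorted samples, leaving out 1 Kit-Gr1- array without a value for every marker. Prg2, Prg3, Epx and Ear6 stood apart in Gr1+ samples, while Ccr3 and Il5ra overlapped. Il5ra was at -2.88 to -2.39 in Gr1+ samples and -4.35 to -2.73 in the others. The sum of 10 mast cell and basophil markers was 25030% to 53678% in Gr1+ samples and 7165% to 32797% in the other sorted samples, so these ranges overlapped. Cpa3, Hdc and Cd200r3 stood apart in Gr1+ samples, and the rest of the 10 overlapped. Among the latter Cma1, named after its values were seen, was at -1.15 to -0.51 in Gr1+ samples and -1.08 to 1.04 in the others. The summed signal of 9 erythroid markers ran from 31610% to 40402% in Kit-Gr1- samples, against 4733% to 27928% in the other sorted samples. The 5 megakaryocyte markers summed to 5674% to 10580% in Kit-Gr1- samples and to 1664% to 4170% in the other sorted samples. The sum of 7 T and NK cell markers was 2448% to 3502% in Gr1+ samples and 845% to 1750% in the other sorted samples. Within that list Nkg7, a granule protein gene named after its values were seen, was at 4.42 to 5.04 in Gr1+ samples and 2.52 to 3.92 in the others. Lck, also named after its values were seen, went the other way, at -1.93 to -1.67 in Gr1+ samples and -1.42 to -0.04 in the others. The T cell receptor component Cd3e overlapped, at -0.14 to 0.91 in Gr1+ samples and -0.33 to 0.77 in the others. Cd3g, Cd4, Klrb1c and Ncr1 overlapped too. The sum of 8 monocyte and macrophage markers was 3191% to 5319% in Gr1+ samples and 295% to 630% in the other sorted samples where every marker had a value. Of these 8, Adgre1, Cd14, Csf1r and Ccr2, named after their values were seen, stood apart in Gr1+ samples. Adgre1 was the highest there, at 4.33 to 4.88, against -0.53 to 1.66 in the others. Cx3cr1, C1qa, C1qb and Ms4a7 overlapped, with C1qa at -3.03 to -2.40 in Gr1+ samples and -3.32 to -1.80 in the others. The 8 dendritic cell markers (289% to 437%) and 8 B cell markers (144% to 235%) spanned similar ranges in the sorted fractions, and none of either list was below background on all arrays of a fraction.

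The 14 arrays lay on 4 slides, and 4 arrays had compressed signals, with an interquartile range of 1.78 to 3.42 on the log2 scale against 4.17 to 4.92 on the others. These were Gr1+ replicate 3, Sca1hi replicate 3, Sca1lo replicate 3 and unfractionated replicate 1. Over the genes tested, with 1 probe each and a value on every array, the 2 unfractionated samples correlated with each other at 0.509. Pairs within sorted fractions correlated at 0.839 to 0.989. All 12 member probes were well above background on all 14 arrays, a mark met by 79.5% to 99.5% of the spots on each array.

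**Figure D1:**
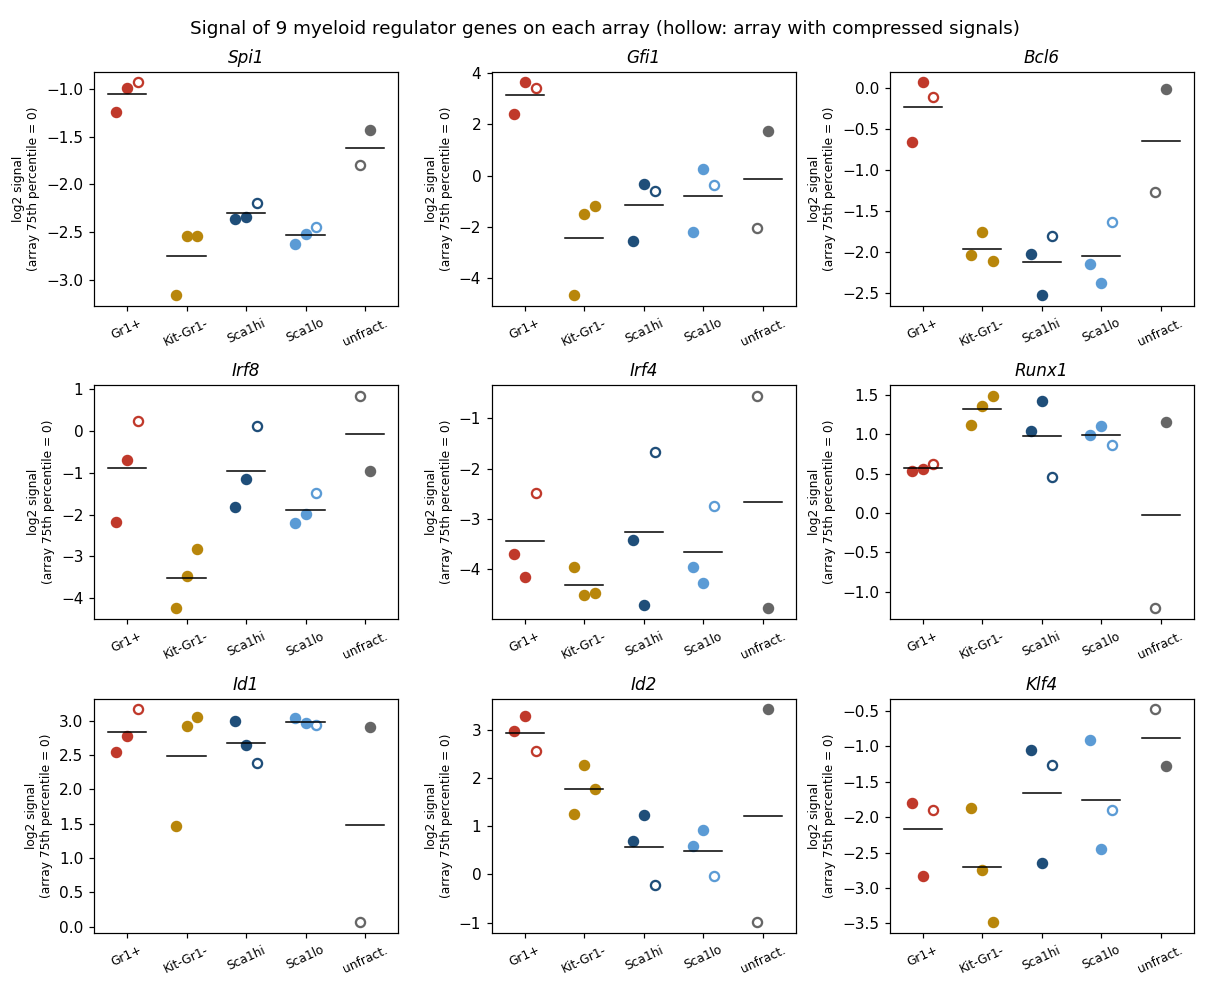
Log2 signal (vertical axis, array 75th percentile at 0) of the 9 genes on each of the 14 arrays, by group, with points for arrays, hollow points for the 4 compressed arrays and a line for the group mean. The 3 Gr1+ arrays lie above all other sorted arrays for Spi1, Gfi1, Bcl6 and Id2, and Irf4 is highest on the compressed array of each group that holds one.

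Spi1 was higher in Gr1+ cells than in every other fraction. It measured -1.24, -0.98 and -0.93 in Gr1+ samples, -3.16, -2.54 and -2.54 in Kit-Gr1- samples, -2.36, -2.35 and -2.20 in Sca1hi samples, and -2.62, -2.52 and -2.44 in Sca1lo samples. The 3 Gr1+ values did not overlap any of the 9 others, and the Sca1hi values lay above the Sca1lo values. Against Kit+Gr1- cells the log2 difference was 1.36 ± 0.25 (SE), 2.57-fold, with an adjusted p of 0.011 (limma), and against Kit-Gr1- cells it was 1.70 ± 0.28, 3.24-fold, adjusted p = 0.0080. On slides 1, 2 and 3 the differences from Kit+Gr1- were 1.25, 1.53 and 1.42. On slide 1 the comparators were both Sca1 fractions, on slide 2 Sca1lo only and on slide 3 Sca1hi only. In the order of levels, Sca1hi, Sca1lo and Kit-Gr1- followed Gr1+, and the last 2 overlapped.

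Gfi1 had the largest change of the 9 genes in both comparisons with Gr1+ cells. It measured 2.41, 3.64 and 3.42 in Gr1+ samples, -4.66, -1.49 and -1.19 in Kit-Gr1- samples, -2.57, -0.34 and -0.60 in Sca1hi samples, and -2.22, 0.26 and -0.37 in Sca1lo samples. Gr1+ values stood apart from all others, and replicate 1, which lay on slide 1, was the lowest in each of the 4 fractions. Against Kit+Gr1- cells the log2 difference was 4.13 ± 0.93, 17.5-fold, adjusted p = 0.036 (limma), and within slides 1, 2 and 3 it was 4.80, 3.38 and 3.76. Against Kit-Gr1- cells it was 5.60 ± 1.07, 48.6-fold, adjusted p = 0.017, and without Kit-Gr1- replicate 1 it was 4.50, adjusted p = 0.094. The summed neutrophil markers moved with Gfi1. They were 149340%, 210249% and 172655% in Gr1+ samples. In Kit-Gr1- samples 1, 2 and 3 they were 6670%, 25154% and 18056%, and replicate 1, with the lowest sum of the sorted samples, also had the lowest Gfi1. The part of these cells, and of eosinophils, monocytes and the other cell types whose markers were higher in Gr1+ samples, in the Spi1, Gfi1 and Bcl6 differences was not tested, and in bulk RNA more cells of a type and more RNA per cell cannot be told apart.

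**Figure D2:**
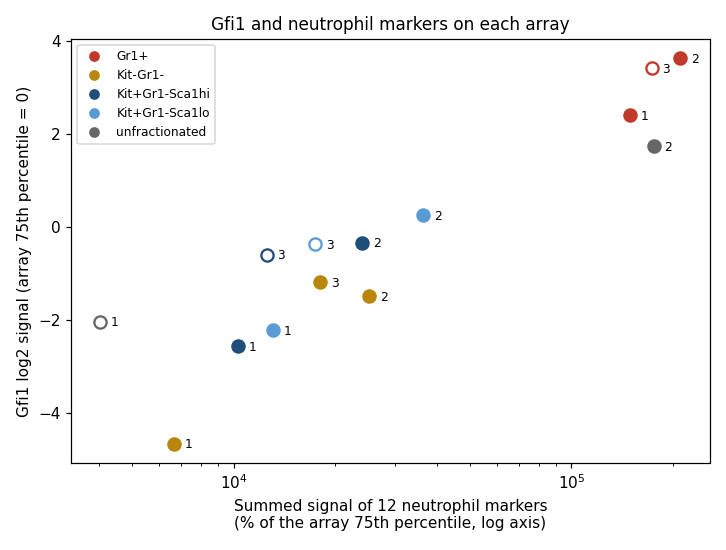
Gfi1 log2 signal (vertical axis, array 75th percentile at 0) against the summed signal of 12 neutrophil markers (horizontal axis, percent of the 75th percentile, log scale), with a numbered point for each array and hollow points for compressed arrays. The 3 Gr1+ arrays and unfractionated replicate 2 form the upper right, with marker sums of 149340% to 210249%, and Kit-Gr1- replicate 1 has the lowest Gfi1 value.

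Bcl6 was also higher in Gr1+ cells. It measured -0.66, 0.06 and -0.12 in Gr1+ samples, -2.03, -1.75 and -2.11 in Kit-Gr1- samples, -2.02, -2.52 and -1.80 in Sca1hi samples, and -2.14, -2.37 and -1.63 in Sca1lo samples. No Gr1+ value overlapped the 9 others, and the 3 other fractions overlapped each other. The log2 difference was 1.84 ± 0.32 against Kit+Gr1- cells, 3.59-fold, adjusted p = 0.0082 (limma), and 1.73 ± 0.36 against Kit-Gr1- cells, 3.31-fold, adjusted p = 0.030. Within slides 1, 2 and 3 the first was 1.43, 2.43 and 2.40. Its windows above held the 4 TTCNNNGAA matches.

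These calls depended on single arrays. Without Gr1+ replicate 2, no member was called in either comparison with Gr1+. Spi1 then had a difference of 1.33 from Kit+Gr1- cells (adjusted p = 0.12) and 1.66 from Kit-Gr1- cells (adjusted p = 0.073), Gfi1 3.89 (0.24) and 5.36 (0.11), and Bcl6 1.69 (0.10) and 1.58 (0.22). Without Gr1+ replicate 3, Bcl6 alone was called against Kit+Gr1-, with Spi1 at 1.30 (adjusted p = 0.068) and Gfi1 at 4.00 (0.14), and Spi1 alone against Kit-Gr1-, with Gfi1 at 5.47 (0.069) and Bcl6 at 1.67 (0.12). Without Kit-Gr1- replicate 1 none was called against Kit-Gr1-, with Spi1 at 1.49 (0.061), Gfi1 at 4.50 (0.094) and Bcl6 at 1.70 (0.14). Against Kit+Gr1-, the Gfi1 call also ended without Gr1+ replicate 1 (4.50, adjusted p = 0.088), Sca1hi replicate 1 (3.78, 0.092) or 2 (4.34, 0.057), Sca1lo replicate 1 (3.77, 0.091) or 3 (4.23, 0.063), or Kit-Gr1- replicate 2 (4.13, 0.051). Against Kit-Gr1-, the Bcl6 call also ended without Sca1hi replicate 1 (1.73, adjusted p = 0.050), Sca1lo replicate 1 (1.73, 0.056), or Kit-Gr1- replicate 2 (1.83, 0.082) or 3 (1.66, 0.16). Scaling to array medians ended all 6 member calls, with adjusted p = 0.26 for Spi1, 0.17 for Gfi1 and 0.15 for Bcl6 against Kit+Gr1-, and so did quantile normalization. Normexp background correction together with quantile normalization left Gfi1 alone called. The unscaled deposited values left Gfi1 called, and called Id2 against Kit+Gr1-. With Sca1hi cells alone as comparator Spi1 (1.25, adjusted p = 0.063) and Gfi1 (4.33, 0.091) were not called, and with Sca1lo cells alone Gfi1 was not (3.94, 0.12). Without the 4 compressed arrays all 6 calls remained, Spi1 at 1.35 and 1.63, Gfi1 at 4.24 and 5.47, and Bcl6 at 1.97 and 1.67. Without the 2 unfractionated arrays, chosen after seeing the data, all 6 also remained, at the sizes reported. Against Kit+Gr1- and Kit-Gr1- the adjusted p was then 0.0019 and 0.0015 for Spi1 (limma). For Gfi1 it was 0.0042 and 0.0018, and for Bcl6 0.00050 and 0.0030. Leaving out an array outside both compared groups changed only the adjusted p, not the difference. All these differences kept their sign.

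**Figure D3:**
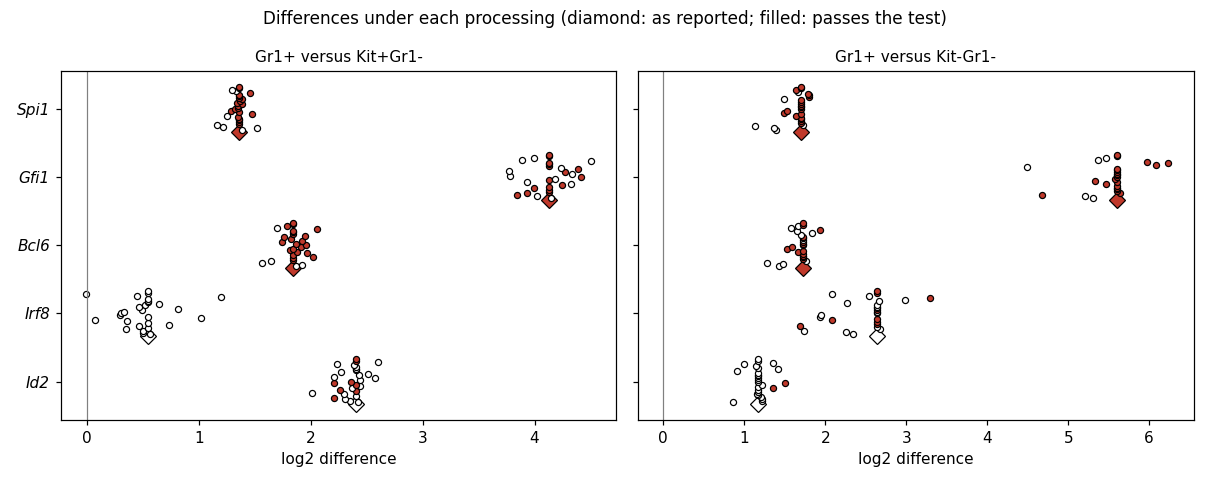
Log2 differences (horizontal axes) of 5 genes for Gr1+ minus Kit+Gr1- (left) and Gr1+ minus Kit-Gr1- (right) as reported (diamonds) and under each other processing or array left out (circles), filled where the adjusted p is under 0.05 and the change at least 2-fold. The signs of Spi1, Gfi1, Bcl6 and Id2 are positive throughout, while the fill varies.

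Id2 had high values in Gr1+ cells, but did not pass the test. Its brighter probe measured 2.97, 3.29 and 2.55 in Gr1+ samples, 1.26, 2.27 and 1.77 in Kit-Gr1- samples, 0.70, 1.23 and -0.23 in Sca1hi samples, and 0.60, 0.93 and -0.04 in Sca1lo samples. Gr1+ values lay above all others, and Kit-Gr1- values lay above both Sca1 fractions. The difference of Gr1+ from Kit+Gr1- was 2.41 ± 0.70, 5.30-fold, adjusted p = 0.14 (limma), that of Gr1+ from Kit-Gr1- was 1.17 ± 0.81 (adjusted p = 0.95), and that of Kit-Gr1- from Kit+Gr1- was 1.24 ± 0.70 (adjusted p = 0.91). Its second probe gave 2.19, 1.15 and 1.03. The difference from Kit+Gr1- was called, at the same size, when replicate number entered the fit as a block (0.0495 for the adjusted p), and without unfractionated replicate 1 (adjusted p = 0.00043) or 2 (0.00061). Without the 4 compressed arrays Id2 was called in Gr1+ cells against both, at 2.26 (adjusted p = 0.0013) from Kit+Gr1- and 1.36 (0.017) from Kit-Gr1-. Id1, the related inhibitor, did not separate the fractions, at 2.55, 2.78 and 3.17 in Gr1+ samples, 1.46, 2.93 and 3.05 in Kit-Gr1- samples, 2.99, 2.65 and 2.38 in Sca1hi samples, and 3.04, 2.96 and 2.94 in Sca1lo samples. The Gr1+ difference from Kit+Gr1- had a 95% interval of -1.11 to 1.11.

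Irf8 had its lowest mean in Kit-Gr1- cells on both of its probes, and on 1 of them these samples stood apart. That probe, A_52_P354823, measured -2.18, -0.68 and 0.23 in Gr1+ samples, -4.25, -3.46 and -2.83 in Kit-Gr1- samples, -1.81, -1.14 and 0.12 in Sca1hi samples, and -2.20, -1.99 and -1.49 in Sca1lo samples. Kit-Gr1- values lay below all others, and Gr1+ and Kit+Gr1- values overlapped. Its difference of Kit-Gr1- from Kit+Gr1- was -2.09 ± 0.58 (adjusted p = 0.70, limma), and of Gr1+ from Kit-Gr1- 2.64 ± 0.67 (adjusted p = 0.082). Within slides 1, 2 and 3 the first was -2.25, -1.47 and -1.69. The other probe, A_51_P187253, measured -1.21, -1.10 and -1.24 in Gr1+ samples, -1.46, -1.96 and -2.36 in Kit-Gr1- samples, -1.62, -1.92 and -1.30 in Sca1hi samples, and -1.38, -1.85 and -1.34 in Sca1lo samples. On it the same differences were -0.36 ± 0.25 and 0.74 ± 0.29, so the probes disagreed in size. A_52_P354823 stood for the gene by its mean over all 14 arrays, -1.557 against -1.559. Over the 12 sorted arrays the means were -1.81 and -1.56, so the choice rested on the unfractionated samples. On A_51_P187253 no difference was called. The Gr1+ over Kit-Gr1- difference of A_52_P354823 was called without the 4 compressed arrays (2.08, adjusted p = 0.030), without unfractionated replicate 1 (adjusted p = 0.020) or 2 (0.024), without Gr1+ replicate 1 (3.29, 0.036) and without Sca1hi replicate 3 (2.64, 0.048), and with the slide as a block (2.64, 0.045).

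**Figure D4:**
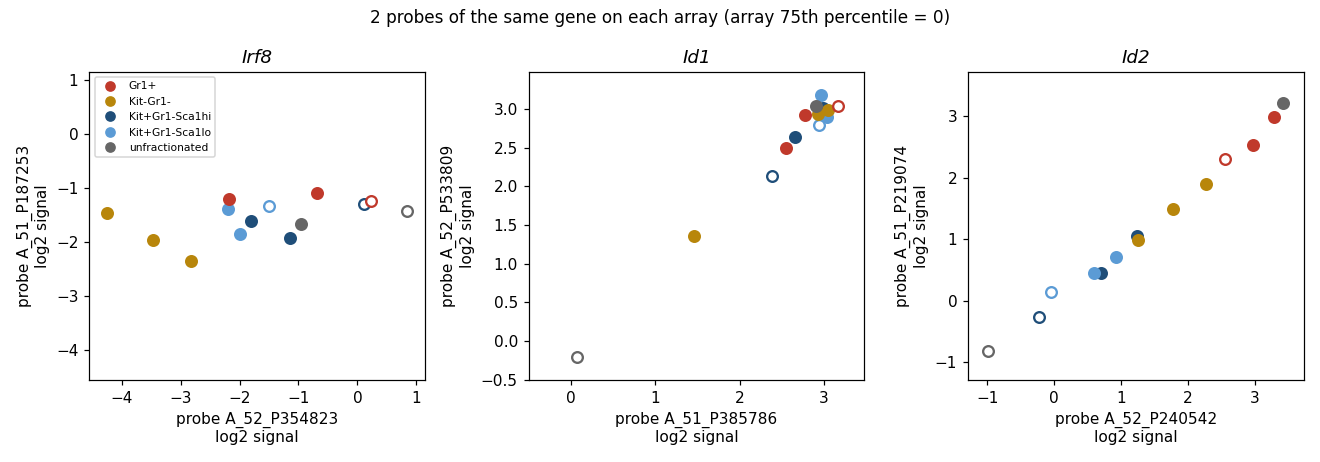
Log2 signals of both probes of Irf8, Id1 and Id2 on each array (array 75th percentile at 0), coloured by group, hollow for compressed arrays. The Id1 and Id2 probes rise together, while the second Irf8 probe spans -2.36 to -1.10 as the first spans -4.25 to 0.84.

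Irf4 was highest on the compressed arrays. It measured -3.70, -4.16 and -2.48 in Gr1+ samples, -3.95, -4.52 and -4.48 in Kit-Gr1- samples, -3.41, -4.72 and -1.67 in Sca1hi samples, and -3.95, -4.27 and -2.75 in Sca1lo samples. The third value of each group with a compressed array was its highest, and the difference of Gr1+ from Kit+Gr1- was 0.02 ± 0.86. Without Gr1+ replicate 3 it was -0.47. Irf4 was near the floor on some arrays. Its unscaled signal on Sca1hi replicate 2 was 28.8, where the lowest signal well above background was 14.5. Runx1 measured 0.53, 0.55 and 0.62 in Gr1+ samples, 1.11, 1.36 and 1.48 in Kit-Gr1- samples, 1.04, 1.42 and 0.45 in Sca1hi samples, and 0.99, 1.10 and 0.86 in Sca1lo samples. Gr1+ values lay below all Kit-Gr1- values and below all Kit+Gr1- values except that of Sca1hi replicate 3. The difference from Kit-Gr1- was -0.75 ± 0.45 (adjusted p = 0.95, limma) and from Kit+Gr1- -0.41 ± 0.39. Without the 4 compressed arrays Runx1 was lower by under 2-fold, at -0.78 (adjusted p = 0.020) from Kit-Gr1- and -0.60 (0.041) from Kit+Gr1-. Klf4, at -1.80, -2.83 and -1.90 in Gr1+ samples, -1.88, -2.74 and -3.48 in Kit-Gr1- samples, -1.05, -2.65 and -1.26 in Sca1hi samples and -0.92, -2.46 and -1.91 in Sca1lo samples, overlapped in all fractions.

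Counted over the 9 genes, in Gr1+ against Kit+Gr1- cells 3 were called higher (adjusted p under 0.05 and at least 2-fold) and 0 lower, where 1.38% and 0.625% of all genes tested were called. All genes here are the 32463 tested, of which 16460 had a symbol and the rest an accession only, while all 9 members are named. Groups did not overlap, with Gr1+ higher, for 4 of the 9 and for 5.78% of all genes. The members' median difference was 0.55, and that of all genes -0.04. In Gr1+ against Kit-Gr1- cells 3 were called higher and 0 lower, beside 1.03% and 0.564% of all genes. Without overlap 5 were higher and 1 lower, beside 13.9% and 13.1% of all genes, with a median of 1.17 against 0.22. These comparisons share the Gr1+ samples.

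**Figure D5:**
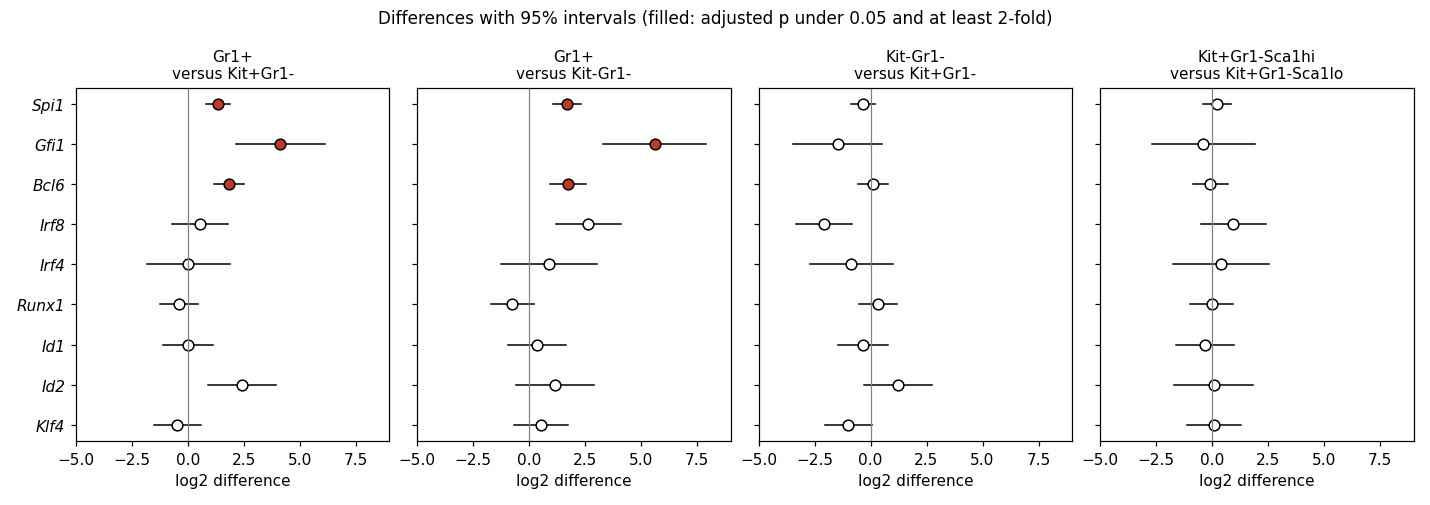
Log2 differences with 95% intervals (horizontal axes) of the 9 genes in 4 comparisons, first group minus second, filled where called. Spi1, Gfi1 and Bcl6 are filled in both comparisons with Gr1+, and no gene is filled in the other 2.

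In Kit-Gr1- against Kit+Gr1- cells 0 of 9 were called, beside 0.0678% of all genes, and 1 of the 9, Irf8, had an unadjusted p under 0.05 (limma). Id2 was higher and Irf8 lower in all samples, beside 3.25% and 2.38% of all genes without overlap. For Irf8 both statements hold for A_52_P354823 only. On A_51_P187253 the groups overlapped, with a difference of -0.36 and an unadjusted p of 0.18 (limma). The difference was -0.33 for Spi1, -1.47 for Gfi1, 0.12 for Bcl6, -0.86 for Irf4, 0.34 for Runx1, -0.35 for Id1 and -0.99 for Klf4, and the median was -0.35 for the members and -0.25 for all genes. In Sca1hi against Sca1lo cells 0 of 9 were called in limma, beside 0% of all genes, with 0 members and 55 of 32463 genes at an unadjusted p under 0.05. Spi1 was the 1 member without overlap, higher in Sca1hi by 0.23 ± 0.28, beside 1.33% of all genes. The 95% intervals reached from -0.39 to 0.84 for Spi1 and from -2.70 to 1.92 for Gfi1.

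Among related genes and known targets, the list activated by PU.1 had the most calls in both comparisons with Gr1+, and the lists were not tested against each other. The lists held 8 to 22 tested genes and were chosen with earlier results of these data known. The order of their counts is therefore a description only. In Gr1+ against Kit+Gr1- cells 9 of 18 tested rose and 0 fell, beside 1.38% and 0.625% of all genes. The median difference was 2.22, beside -0.04 over all genes. The largest were Fcgr3, an Fc receptor (4.48 ± 0.88), Cd14, a lipopolysaccharide co-receptor (4.03 ± 0.70), Csf2ra, the GM-CSF receptor alpha chain (3.91 ± 0.79), and Csf3r, the G-CSF receptor (3.21 ± 0.60). Against Kit-Gr1- cells 6 of 18 rose and 0 fell, beside 1.03% and 0.564% of all genes, with a median of 1.98 beside 0.22 over all genes. Csf3r (5.09 ± 0.69), Cd14 (4.26 ± 0.81), Ctss, a lysosomal protease (2.98 ± 0.62), and Csf1r, the M-CSF receptor (2.41 ± 0.55), led the 6. Csf1r and Cd14 also belong to the monocyte markers, whose summed signal did not overlap between Gr1+ and the other sorted samples. Without Gr1+ replicate 2, 1 of the 18 was called higher against Kit+Gr1- and 3 against Kit-Gr1-, beside 0.25% and 0.271% of all genes, and 0 were lower, beside 0.102% and 0.194%. Without the 4 compressed arrays 14 and 14 were called higher, beside 3.46% and 3.15% of all genes, and 0 lower, beside 2.79% and 2.48%. These repeats were added after seeing the data. In Kit-Gr1- against Kit+Gr1- cells 0 of 18 were called, and Csf3r differed by -1.87 and Fcgr3 by 1.75.

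Of 13 genes repressed by Gfi1, 1 rose in Gr1+ against Kit+Gr1- cells, Csf1, the M-CSF ligand (3.38 ± 0.70). Gfi1b, the Gfi1 relative of erythroid cells, fell by 2.21 on the log2 scale in Gr1+ against Kit-Gr1- cells, in which erythroid markers were high. Of 12 genes repressed by Bcl6, Ccl3, a chemokine, rose (4.56 ± 0.88) in Gr1+ against Kit+Gr1- cells and the other 11 were not called. Of 22 relatives of the members, Runx2 (3.94 ± 0.43) and Klf5 (1.93 ± 0.29) rose in Gr1+ against Kit+Gr1- cells, and Runx2 (4.23 ± 0.50) against Kit-Gr1- cells. Runx2 thus was called where Runx1, its paralog, was not, and their difference was not tested. Of 19 partners and cofactors, the E protein gene Tcf4, whose products Id proteins bind, fell by 1.36 in Gr1+ against Kit+Gr1- cells. Of 8 BMP and SMAD targets 0 were called, with Bambi, a pseudoreceptor, at -0.99 in Gr1+ against Kit+Gr1- cells (adjusted p = 0.062, limma). In that comparison the median difference was 0.62 for the Gfi1 list, 0.40 for the Bcl6 list, 0.22 for the relatives, -0.21 for the partners and -0.0041 for the BMP targets. Over all genes 1.38% were called higher in it and 0.625% lower. Without the 4 compressed arrays the calls in Gr1+ against Kit+Gr1- were 3 higher and 2 lower of the Gfi1 list, 3 higher of the Bcl6 list, 3 higher and 1 lower of the relatives, 1 lower of the partners and 2 higher and 1 lower of the BMP list, where 3.46% of all genes were called higher and 2.79% lower. Without Gr1+ replicate 2, 1 relative was called among these lists.

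By Pearson correlation over the 12 sorted arrays, given as a description since the arrays share fractions and slides, the genes most like Spi1 were Arl11 (0.995), Sh3tc1 (0.989) and Mapk13 (0.984). Among those most like Gfi1 were Tm6sf1 (0.983) and Cables1 (0.978), and those most like Bcl6 were Pilrb2 (0.986), Ceacam2 (0.985) and Abtb2 (0.978). Id2 was closest to Dnase1l1 (0.982), Irf8 to Decr2 (0.961), Irf4 to Ttll8 (0.992), Runx1 to Pik3cd (0.980), Klf4 to Ldhd (0.936) and Id1 to Chac1 (0.853). Among the members Spi1 correlated with Gfi1 at 0.94 and with Bcl6 at 0.91. By Spearman rank correlation these pairs were at 0.80 and 0.59.

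The 2 unfractionated samples differed from each other, and replicate 1 was compressed. In replicates 1 and 2 Gfi1 measured -2.04 and 1.73, Spi1 -1.80 and -1.43, Bcl6 -1.27 and -0.02, Id2 -0.99 and 3.43, Irf8 0.84 and -0.96, Irf4 -0.56 and -4.78, Runx1 -1.21 and 1.15, Id1 0.07 and 2.91, and Klf4 -0.48 and -1.28. Replicate 2 lay above the Kit-Gr1- and Kit+Gr1- values for Spi1, Gfi1, Bcl6 and Id2, and its neutrophil marker sum of 175258% lay within the Gr1+ range.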

How the data were processed

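Per the file headers, Agilent Feature Extraction 10.1.1.1 produced a processed signal for every spot, and this deposited intensity had its background subtracted and was detrended. The deposited series matrix holds its unscaled log2. Control and outlier-flagged spots were left out and the spots of a probe averaged. The log2 intensity was set against each array's 75th percentile. Probes well above background on at least 3 of 14 arrays were kept (40278), and of a gene's probes that of highest 14-array mean was used (32463 genes). Names came from RefSeq's GRCm38.p6 table, without coordinates since the array was designed on mm8. Of the 32463, 16460 had a symbol, and each other accession counted as a gene of its own. All arrays entered 1 fit of 5 groups in R 4.3.3 with limma 3.58.1 (lmFit, eBayes with a trend), with two-sided tests and Benjamini-Hochberg adjustment over all genes. A gene was called at an adjusted p under 0.05 and at least 2-fold. Differences are the first group minus the second. The scripts were tested on simulated data.

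The members and gene lists were chosen with earlier results of these data known. Named genes are the 9 members, up to 4 called genes with the largest change per list and comparison (else up to 2 by absolute moderated statistic), and the most correlated genes, 1 of which is not reported here. The files hold the median but not the mean spot intensity, so the normexp alternative (offset 50) used the deposited median. Tables and figures used Python 3.11.15, pandas 2.3.3 and matplotlib 3.10.9. The number of arrays limits the precision. The labels number the replicates. Deviations from the group means correlated at 0.62 to 0.87 in all 9 same-numbered pairs among Gr1+, Sca1hi and Sca1lo. In each of these fractions replicate 3 is the compressed array. Pairs of a replicate 3 with a replicate 1 or 2 of another of these fractions reached from -0.86 to -0.58. Pairs of a replicate 1 with a replicate 2 reached from 0.31 to 0.66. Same-numbered pairs with a Kit-Gr1- sample reached from -0.23 to 0.21. Whether the numbers pair the samples was not tested, since these correlations also carry the compressed arrays.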

Additional observations from a re-analysis of the deposited data

How the results depend on the processing

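Of the 9 genes, Spi1, Gfi1, Bcl6 and Id2 (higher), Runx1 (lower) and Klf4 (lower than Kit+Gr1-, higher than Kit-Gr1-) kept their direction in both comparisons with Gr1+ under every alternative run (28 against Kit+Gr1-, 26 against Kit-Gr1-), while the calls of Spi1, Gfi1, Bcl6 and Id2 changed. As reported, 651 genes were called in Gr1+ against Kit+Gr1-, 22 in Kit-Gr1- against Kit+Gr1- and 517 in Gr1+ against Kit-Gr1-, with 3, 0 and 3 of the members. Array medians gave 202 genes (173 higher and 29 lower, against 448 and 203 as reported) and 191 genes with 0 and 0 members, and the median difference of all genes was 0.07 in Kit-Gr1- against Kit+Gr1-, where it was -0.25 as reported, and -0.08 in Gr1+ against Kit-Gr1-, where it was 0.22. Quantile normalization gave 0 and 0 members and 13 genes in Kit-Gr1- against Kit+Gr1- (12 higher and 1 lower, against 18 and 4). Normexp background with quantile normalization gave 1 and 1 members. The unscaled deposited values gave 2 members against Kit+Gr1-, 1 against Kit-Gr1-, and 13 genes in Kit-Gr1- against Kit+Gr1-. Without the 4 compressed arrays the counts were 2027, 108 and 1829 genes with 4, 0 and 5 members. With Sca1hi alone as comparator they were 325 genes and 1 member, and with Sca1lo alone 421 genes, and 0 genes in Kit-Gr1- against Sca1lo. Chosen after seeing the data, leaving out both unfractionated arrays gave 1345, 106 and 1276 genes, array medians without the compressed arrays 1724 (848 higher and 876 lower), 95 and 1508 (643 higher and 865 lower), and quantile normalization without them 2138, 107 and 1857. The cause of these changes was not tested.

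Differences near 0 changed sign. Under array medians Sca1hi minus Sca1lo was -0.064 for Id2 and -0.029 for Klf4. Under quantile normalization Gr1+ minus Kit+Gr1- was -0.030 for Irf4 and -0.083 for Id1, Kit-Gr1- minus Kit+Gr1- was 0.15 for Spi1, and Sca1hi minus Sca1lo was -0.13 for Spi1, 0.016 for Runx1, -0.010 for Id2 and -0.026 for Klf4. With normexp background and quantile normalization together these were -0.0097 for Irf4 and -0.045 for Id1, 0.082 for Spi1, and -0.0053 for Spi1 and -0.035 for Klf4. With the deposited values Irf4 was at -0.18 and Id1 at -0.19 in Gr1+ minus Kit+Gr1-, Bcl6 at -0.12 in Kit-Gr1- minus Kit+Gr1-, and Bcl6 at 0.12 and Runx1 at 0.17 in Sca1hi minus Sca1lo. With the slide as a block Id1 was at -0.16 in Gr1+ minus Kit+Gr1- and Id2 at -0.24 in Sca1hi minus Sca1lo. Without the compressed arrays Id1 was at -0.25 in Gr1+ minus Kit+Gr1-, and Runx1 at 0.18 and Klf4 at -0.16 in Sca1hi minus Sca1lo. The same 3 were -0.31, 0.30 and -0.046 with array medians and -0.18, 0.14 and -0.040 with quantile normalization, and Bcl6 was 0.10 and 0.11. Gr1+ minus Sca1hi was -0.18 for Irf4, and Gr1+ minus Sca1lo was -0.15 for Id1.

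Leaving out 1 array at a time gave 114 to 1349 genes and 0 to 4 members in Gr1+ against Kit+Gr1-, 0 to 111 genes in Kit-Gr1- against Kit+Gr1-, and 151 to 1283 genes and 0 to 4 members in Gr1+ against Kit-Gr1-. Counts against Kit+Gr1- were 433 without Gr1+ replicate 1, 114 without 2, 358 without 3, 433 without Sca1hi replicate 1, 420 without Sca1lo replicate 1, and 1349 or 1338 without unfractionated replicate 1 or 2. Against Kit-Gr1- they were 151 and 285 without Gr1+ replicate 2 and 3, 187, 321 and 207 without Kit-Gr1- replicate 1, 2 and 3, and 1283 or 1263 without unfractionated replicate 1 or 2. In Kit-Gr1- against Kit+Gr1- they were 0 without Kit-Gr1- replicate 1 or 3, 14 without Sca1hi replicate 1 or Sca1lo replicate 2 or 3, and 111 or 103 without unfractionated replicate 1 or 2. The ranges that cross 0 were, for Gr1+ minus Kit+Gr1-, -0.0091 to 1.20 for Irf8, -0.47 to 0.42 for Irf4 and -0.16 to 0.14 for Id1, for Id1 -0.63 to 0.16 in Kit-Gr1- minus Kit+Gr1- and -0.16 to 0.63 in Gr1+ minus Kit-Gr1-, and, for Sca1hi minus Sca1lo, -1.11 to 0.31 for Gfi1, -0.41 to 1.12 for Irf4, -0.23 to 0.14 for Bcl6, -0.24 to 0.24 for Runx1, -0.26 to 0.47 for Id2 and -0.24 to 0.60 for Klf4.

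Same-numbered samples of Gr1+ and the 2 Sca1 fractions deviated together, but those of Kit-Gr1- did not all do so: over all 4 fractions the correlation was above 0.1 in 14 of 18 same-numbered pairs (lowest -0.23) and in 11 of 36 others. With the replicate number as a block 793, 27 and 670 genes and 4, 0 and 4 members were called. That fit blocked the Kit-Gr1- samples by number too. Pairing by number was not tested in any fraction, and replicate 3 was the compressed array in Gr1+ and both Sca1 fractions. The block added Id2 in Gr1+ against Kit+Gr1- (adjusted p = 0.0495) and Irf8 in Gr1+ against Kit-Gr1- (0.020), and changed no other member's call.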
